A study of Mus musculus with 12 samples.

Results

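Topotecan was compared with vehicle in mouse cortical neuron cultures whose Top1 gene was intact, by RNA-seq of polyA RNA from 3 WT-Veh and 3 WT-Topot cultures. These are 6 of the 12 libraries of the study, taken by their labels, with replicates 1 to 3 in each group. Both groups were cortical cells from C57BL6 embryos (E13.5 to E15.5) that received, at 3 days in vitro (DIV), a lentivirus expressing the red fluorescent protein tdTomato, without CRE, from the CaMKIIα promoter. WT-Veh cultures then received 0.003% DMSO and WT-Topot cultures 300 nM topotecan in the same amount of DMSO from DIV 15, for 72 h, and both were harvested at DIV 18. The labels call the genotype Wild-type, whereas the study's methods describe cultures homozygous for a floxed Top1 allele (Top1 fl/fl). In either reading both groups shared the genotype and the virus. The promoter limits tdTomato to neurons, about 85 to 90% of cells were transduced, and no sorting step is described, so the RNA came from mixed cultures at a single dose and time. In the other 6 libraries (Top1 cKO-Veh and Top1 cKO-Topot) the lentivirus also expressed CRE, from the same promoter. They are used here only to set the effect of topotecan on Top1-deleted cells beside its effect on Top1-intact cells.

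TOP1 (topoisomerase I) relieves the supercoils that build up ahead of and behind a transcribing RNA polymerase by cutting 1 strand of DNA, letting it turn and sealing it again. Topotecan, a camptothecin derivative, binds the enzyme while it is attached to the cut strand and holds it there as a TOP1 cleavage complex, so that the drug both takes away the enzyme's activity and leaves a protein-bound break on DNA. In neurons, which do not divide, TOP1 inhibitors are known for lowering transcripts of very long genes, many of which encode synaptic adhesion proteins, receptors and channels.

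The 6 libraries held 1730164 to 3493909 counts over genes, and 15044 to 16007 of the 23893 genes of the table had a count in a library. Levels are given as CPM, the count scaled to the TMM-adjusted library size, on which 3 counts stand for 0.859 to 1.75 CPM. Below, the 3 values of a group are in the order of replicates 1, 2 and 3. Log2 fold changes are WT-Topot over WT-Veh with their standard error (SE), and adjusted p-values are those of the quasi-likelihood test of edgeR, adjusted by Benjamini and Hochberg's method over the whole table of 23893 genes. Calls were made at 0.01. Top1 itself was counted at 116, 167 and 125 CPM in WT-Veh and 131, 139.8 and 133 CPM in WT-Topot, groups that overlapped (log2 fold change −0.01 ± 0.19 (SE), adjusted p = 1), and at 27.1 to 44.0 CPM in the 6 CRE libraries on the scale of all 12. Cultures that share a replicate number varied together, so a second fit, with the number as a block, stands beside each result whose call or count it changes. Neither the labels nor the methods say what a number stands for, and p-values measure the spread between these cultures.

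Among markers of the cell types that such cultures can hold, neuronal markers were present in every library. Of 13 neuronal markers, 1 was called lower and 1 higher (4 and 4 with the block), and the median log2 fold change was 0.01. Of the astrocyte markers, 3 of 10 were called lower and 0 higher (5 and 0 with the block), and their summed level was 2442 to 4948 CPM in WT-Veh and 1178 to 1995 CPM in WT-Topot, ranges that did not overlap. Gfap, the intermediate filament of astrocytes, was counted at 1145, 371 and 487 CPM in WT-Veh and 184, 57 and 104 CPM in WT-Topot (log2 fold change −2.54 ± 0.37 (SE), adjusted p = 0.00017). Slc1a2 and Slc1a3, the astrocytic glutamate transporters, had log2 fold changes of −1.39 and −1.52. Slc1a2 is also among the 10 most abundant lower genes and so weighs in the sum. Of the 3 called markers, 1 spanned over 100 kb and 1 spanned 50 kb or less. The part of astrocyte markers in the falls given below was not tested. In bulk RNA, fewer cells of a type and less RNA per cell cannot be told apart. Microglia markers were near the counting limit, with a summed level of 8.75 to 25 CPM in WT-Veh and 9.2 to 27.5 CPM in WT-Topot, and edgeR called 0 of 10 in either fit, as it did of the 10 endothelial and mural and 14 proliferation markers. At an unadjusted p of 0.05, 0 microglial, 0 endothelial and mural and 1 proliferation marker passed. An average of 1 CPM or more was reached by 5 of the microglial, 3 of the endothelial and mural and 5 of the proliferation markers. A change in the others could have been missed. Interneuron markers were mixed, with 0 of 13 called lower and 1 higher (5 and 3 with the block) and a summed level of 824 to 1826 CPM in WT-Veh and 622 to 1129 CPM in WT-Topot. Oligodendrocyte lineage markers gave 0 calls of 10 (1 lower and 1 higher with the block, and 1 and 3 at an unadjusted p of 0.05). Of 8 markers of radial glia and progenitors, Nes was called higher (54.7, 49.2 and 32.7 CPM in WT-Veh and 129, 90.2 and 103 CPM in WT-Topot), and 3 were higher with the block. Their median log2 fold change was 0.71, 1 of the 8 was negative, and their summed level was 222 to 570.2 CPM in WT-Veh and 595 to 1048 CPM in WT-Topot, without overlap. Their part in the rises given below was not tested.

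With topotecan more transcripts were called lower than higher, by a margin that depended on the fit and the threshold. Of 23893 genes, 488 were called lower (2.04%) and 163 higher (0.682%), which is 3.55% and 1.18% of the 13760 measured genes (1 CPM or more on average). At an unadjusted p of 0.05, 1715 genes were lower and 1406 higher. All 488 lower genes were lower in each of the 3 pairs of cultures with the same number, and in 487 of them the groups did not overlap. Without regard to calls, the groups did not overlap in 1797 measured genes that were lower (13.1%) and 1817 that were higher (13.2%). Among the lower genes, 447 fell past 2-fold, 181 past 4-fold and 57 past 8-fold, with a median log2 fold change of −1.66 (−1.65 with the 16 genes at or under 3 counts in every WT-Topot library set to their bound). Among the higher genes, 136 rose past 2-fold, 25 past 4-fold and 5 past 8-fold, with a median of 1.31. The block gave 1195 lower genes (5.0% of all and 8.68% of measured genes) and 775 higher genes (3.24% and 5.63%). These included all 651 genes called without it. The calls depended on single libraries to an unequal degree: 336 of the 488 lower genes but 69 of the 163 higher genes were called again in each of the 6 fits that left out 1 library. Where a call is said below to be lost without several libraries, each was left out alone. Without WT-Veh replicate 3, the shallowest library, 736 genes were lower and 291 higher.

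The falls lay mostly in long genes, and their size followed the genomic span of the gene. Spans were taken from GENCODE vM1 on NCBIM37, the assembly that mm9 names. A span is that of the annotated gene model, and some models are wide, as that of Fgfr2 encloses Bub3, Oat and Htra1. Of the 488 lower genes, 360 spanned over 100 kb, 20 spanned 50 to 100 kb, 99 spanned 50 kb or less and 9 had no span. The median span of the lower genes was 312.2 kb and that of the higher genes 15.1 kb, and 10 of the 163 higher genes spanned over 100 kb. In the 1680 measured genes of up to 5 kb, 1.49% were called lower (4.17% with the block) and the median log2 fold change was 0.10. Between 50 and 100 kb the median was −0.01. From there it moved to −0.21 in the 1195 genes of 100 to 200 kb, of which 3.93% were called lower (17.5% with the block). It was −0.73 in the 537 genes of 200 to 400 kb, with 25.1% called lower (45.8%), and −1.61 in the 215 genes of 400 to 800 kb, with 58.6% called lower (79.5%). In the 72 genes over 800 kb the median was −2.56 and 72.2% were called lower (79.2%). The order of the medians from 50 kb upwards was the same within each of the 3 pairs, where genes of 200 to 400 kb gave −0.81, −0.65 and −0.64 and genes over 800 kb −2.40, −2.20 and −2.16 as median log2 ratios of CPM + 1.

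**Figure D1:**
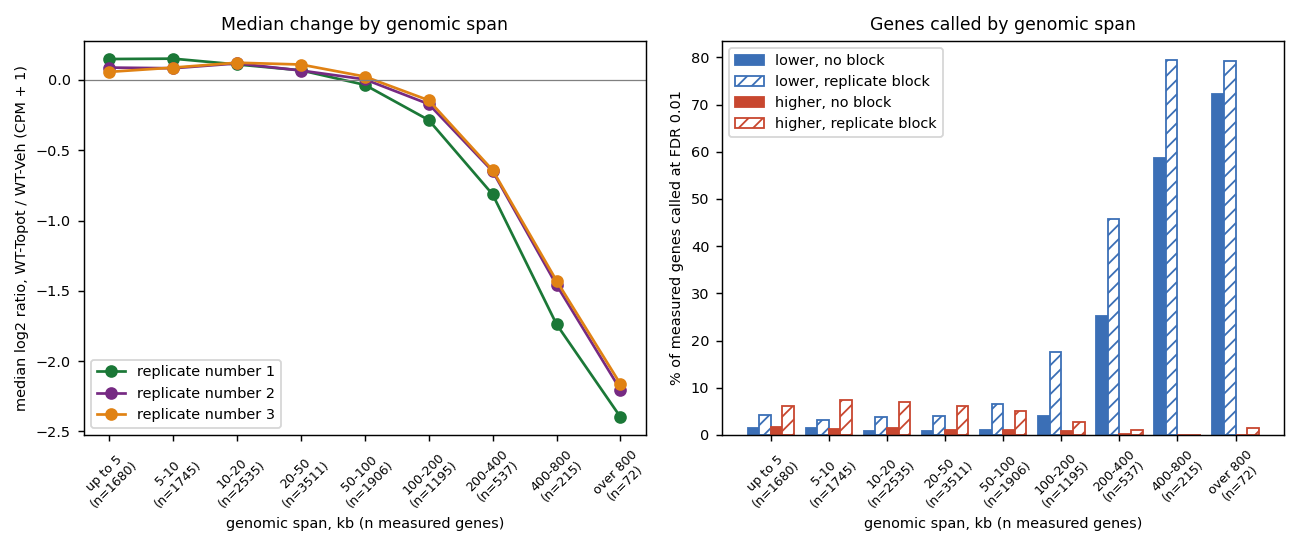
Left, median log2 ratio of WT-Topot over WT-Veh (CPM + 1) in 9 classes of genomic span in kb, 1 line per pair of cultures with the same replicate number. Right, share of the measured genes of each class called lower or higher at an FDR of 0.01, in filled bars without and hatched bars with the replicate block. All 3 lines pass below 0 by 100 to 200 kb, and the share called lower reaches 72.2% without the block over 800 kb.

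Paired by number, 824 genes over 200 kb and 5960 genes up to 20 kb differed in their median log2 ratio by −1.23 in pair 1, −0.947 in pair 2 and −1.03 in pair 3. The mean difference of −1.07 ± 0.144 (SD, n = 3 pairs) was several times its spread (exact sign-flip permutation test, two-sided, p = 0.25, the smallest that 3 pairs allow). As a share of all counts, genes over 100 kb took 20.9% ± 1.06 (SD, n = 3) of WT-Veh and 14.4% ± 1.36 (n = 3) of WT-Topot libraries, with no overlap (two-sided exact permutation test, p = 0.1, the lowest value for 3 against 3). Genes over 200 kb took 9.13% ± 0.608 and 4.51% ± 0.609, and genes of 20 kb or less 33.2% ± 1.54 and 36.8% ± 1.77, in each case without overlap. Among genes over 100 kb, those not called had lower median levels than those called in each class of span. In genes of 100 to 200 kb, the 986 not called lower had a median of 28.0 CPM in WT-Veh, beside 180 CPM in the 47 lower in both fits and 24.9 CPM over all measured genes. Past 400 kb, the 178 genes lower in both fits had a median of 92.1 CPM in WT-Veh, the 50 lower only with the block 20.4 CPM, and the 59 not called 11.9 CPM. Among the 287 measured genes over 400 kb, 277 (96.5%) stood below 0.

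The 10 genes with an annotated span over 400 kb and a positive value are named here after their values were seen. They were Arhgap24, Auts2, Eif4e3, Arfip1, Sox2ot, Macrod2, Fgf13, Sema6d, Mast4 and Camta1, and none was called higher without the block. Whether each annotated span is the length transcribed in these cultures was not checked. Auts2, a regulator of neuronal transcription and migration linked to autism, spans 1106 kb (chromosome 5, 131913205 to 133019214). It was counted at 64.9, 85.8 and 51.9 CPM in WT-Veh and 103, 120 and 77.1 CPM in WT-Topot, higher by 0.57 on the log2 scale (adjusted p = 0.22, and 0.0035 with the block), and was higher in each of the 3 pairs although the ranges of the groups overlapped.

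The 20 largest falls were taken by fitted log2 fold change among called genes averaging 5 CPM or more that moved the same way in all 3 pairs. They included Cntnap2, a neurexin-like adhesion protein of axons, whose gene spans 2241 kb (chromosome 6, 45010060 to 47251368). It was counted at 10.8, 14.7 and 7.59 CPM in WT-Veh and 0, 0 and 0.438 CPM in WT-Topot, which is at least 10.4-fold lower with 3 counts in each WT-Topot library as the upper limit. The uncharacterised transcript 4930539N22Rik, without a span here, was counted at 8.15, 10.7 and 19.8 CPM in WT-Veh and was not counted in any WT-Topot library (at least 12.1-fold lower). For both genes, every WT-Topot library lay below every WT-Veh library. Nell1, a secreted protein with EGF-like repeats (chromosome 7, 57230234 to 58120625, 890.4 kb), was counted at 39, 53.2 and 41.4 CPM in WT-Veh and 1.02, 1.15 and 0.876 CPM in WT-Topot, a log2 fold change of −5.37 ± 0.37 (SE, adjusted p = 3.2e-08). Nrg3, a neuregulin and thus a ligand of the receptor kinase ERBB4, was counted at 109, 110.4 and 115 CPM in WT-Veh and 2.04, 7.73 and 4.38 CPM in WT-Topot (−4.51 ± 0.31, adjusted p = 3.2e-08). Its receptor gene Erbb4 was counted at 6.11, 23.2 and 10.5 CPM in WT-Veh and 0.68, 0.859 and 0.438 CPM in WT-Topot, at least 12.5-fold lower. For ligand and receptor alike, every treated culture lay below every control.

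Of the others among the 20, Ctnna2, the neuronal α-catenin that ties cadherins to actin, was counted at 192, 156 and 254 CPM in WT-Veh and 4.76, 11.5 and 12.7 CPM in WT-Topot (−4.38 ± 0.30, adjusted p = 3.1e-08). Cadm2, a synaptic adhesion protein of the immunoglobulin family (chromosome 16, 66655666 to 67621153), was the most abundant of the 20 and was counted at 677, 771 and 723 CPM in WT-Veh and 22.1, 53.9 and 37.7 CPM in WT-Topot (−4.25 ± 0.26, adjusted p = 1.3e-08). The 3 treated cultures of each gene sat far below the 3 controls. Cdh13, Lsamp, Cntnap5a, Pcdh15 and Astn2, other adhesion or membrane proteins of neurons, had log2 fold changes of −4.34, −3.97, −3.90, −3.95 and −3.90. Kcnma1, the large-conductance calcium-activated potassium channel, was counted at 115, 205 and 119.6 CPM in WT-Veh and 4.08, 14 and 9.64 CPM in WT-Topot (−3.96 ± 0.33, adjusted p = 3.3e-07). The list also held Galntl6 (−4.50), Nkain2 (−4.03), 1700010K23Rik (−4.46), polyA reads at the locus of Mir8115 (−4.03) and the short genes Crhbp, Ostn (at least 9.66-fold lower) and Lcn2. The fall of Lcn2, a secreted protein of reactive astrocytes, rested on 1 library: it was counted at 69, 4.47 and 4.08 CPM in WT-Veh and 2.72, 2.01 and 0 CPM in WT-Topot, and without WT-Veh replicate 1 its adjusted p was 0.5. The other 19 genes kept their call whichever library was left out.

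**Figure D2:**
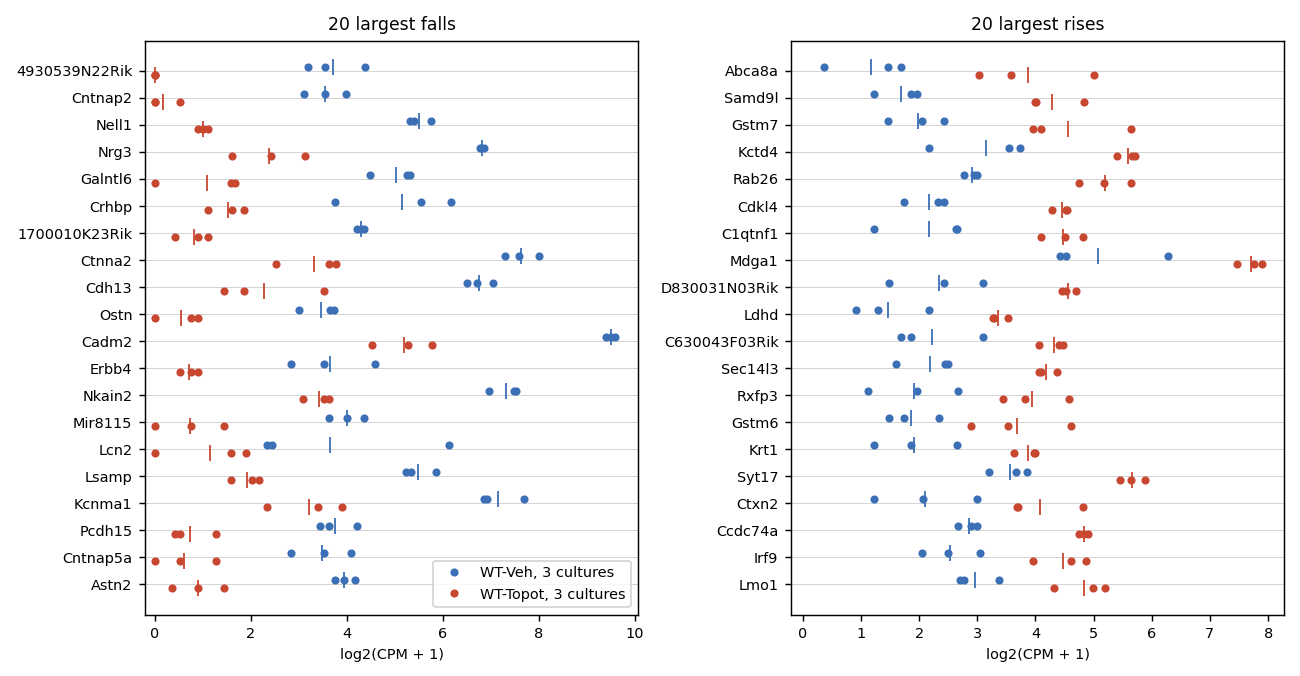
Log2(CPM + 1) in each of the 6 libraries for the 20 largest falls and the 20 largest rises among called genes averaging 5 CPM or more, with 1 point per culture and a vertical tick at the mean of 3. In all 40 genes the treated cultures lie on 1 side of the controls, and the single high WT-Veh culture of Lcn2 stands apart.

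Falls were frequent among genes of cell adhesion and guidance. These lists are rich in long genes: 43 of 69 adhesion and 31 of 48 guidance genes spanned over 100 kb. Over all measured genes 3.55% were called lower (8.68% with the block), and of those of 200 to 400 kb 25.1% (45.8%). Whether these lists, or those below, fell more than other genes of like span was not tested. Here and below, list members outside the naming rule given at the end were chosen after their values were seen. Among these are Nrxn2, Nlgn2, Nlgn3, Grin1, Stx1a, Vamp2, Dlg4 and Mdga2. Of 69 genes of synaptic and neuronal adhesion, 34 were called lower and 2 higher (37 and 6 with the block), with a median log2 fold change of −0.97 beside 0.03 over all measured genes, and 31 of the 34 spanned over 100 kb. Of the 2 higher genes, Mdga1 kept its call whichever library was left out and Cntn2 lost it without WT-Veh replicate 1 or 2 or WT-Topot replicate 1. Nrxn3, a presynaptic neurexin, was counted at 186, 324 and 242 CPM in WT-Veh and 15.6, 23.8 and 24.5 CPM in WT-Topot (−3.55 ± 0.25, adjusted p = 3.5e-08). Nlgn1, a postsynaptic neuroligin that binds neurexins, was counted at 152, 189 and 158 CPM in WT-Veh and 15.3, 34.7 and 17.5 CPM in WT-Topot (−2.86 ± 0.26, adjusted p = 9.4e-07). Of the shorter paralogues, Nrxn2 (125 kb) had a log2 fold change of 0.10 ± 0.18, Nlgn2 (14.7 kb) of −0.16 ± 0.20 and Nlgn3 (30.1 kb) of 0.40 ± 0.19, none of them called without the block. Of 48 axon guidance genes, 16 were lower and 1 higher (24 and 5 with the block, median −0.51). Robo2, a receptor for the repellent Slit proteins, was counted at 181, 204 and 183 CPM in WT-Veh and 26.5, 40.4 and 42.5 CPM in WT-Topot (−2.38 ± 0.21), and Slit3 had a log2 fold change of −2.90 and Epha6, an ephrin receptor, of −2.56. The 1 higher gene was Efnb3, an ephrin ligand of 6.11 kb (0.84). Its call was lost without WT-Veh replicate 2 or WT-Topot replicate 1 or 2 (adjusted p up to 0.042), and also with RLE size factors, TMM on genes of 50 kb or less, filterByExpr or a fit on all 12 libraries. Of 24 giant genes at common fragile sites, 13 were lower and 0 higher (14 and 1 with the block), with a median of −2.40, or −2.04 with genes at the counting limit set to their bound. This list is of long genes by construction.

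Of 17 ionotropic glutamate receptor genes, 7 were lower and 0 higher (10 and 0 with the block, median −1.31), and 16 had a negative value. Grin2b, the NMDA receptor subunit of immature synapses, was counted at 171, 246 and 138 CPM in WT-Veh and 11.9, 52.7 and 25.9 CPM in WT-Topot (−2.60 ± 0.35, adjusted p = 6.6e-05), whereas Grin1, the obligate subunit encoded by a gene of 28 kb, was counted at 522, 682 and 354 CPM in WT-Veh and 481, 538 and 364 CPM in WT-Topot (−0.17 ± 0.21), with overlapping groups. Among the AMPA receptor subunits, Gria1, Gria3 and Gria4 were called lower at −1.31, −1.41 and −1.98, and Gria2, the subunit that limits calcium entry, stood at −0.65 ± 0.22 (adjusted p = 0.12, and 1.1e-07 with the block). Of 9 metabotropic glutamate and GABA-B receptor genes, 3 were lower (7 with the block, and 1 higher), led by Grm8, Grm7 and Grm5, the last counted at 391, 459 and 525 CPM in WT-Veh and 66.3, 126 and 88.1 CPM in WT-Topot. Of 12 GABA-A receptor genes, 2 were lower and 0 higher (4 and 0 with the block), among them Gabrb1 (−2.59), and the median over the list was −0.25.

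Ion channel lists held both falls and rises. Of 36 potassium and HCN channel genes, 14 were lower and 3 higher (18 and 3 with the block, median −0.67), and all 14 lower genes spanned over 100 kb. Kcnd2, an A-type channel, and Kcnip4, one of its accessory proteins, had log2 fold changes of −2.39 and −3.09. In the opposite direction, Kcnip2, another accessory protein of the same channels but encoded by a gene of 24.2 kb, was counted at 61.1, 26.4 and 42.6 CPM in WT-Veh and 171, 143 and 149 CPM in WT-Topot (log2 fold change 1.82 ± 0.24, adjusted p = 6.5e-05), and the leak channel Kcnk9 rose by 1.59. Of 25 sodium and calcium channel genes, 7 were lower and 3 higher (10 and 5 with the block, median −0.35). Cacna2d3, an accessory subunit, had a log2 fold change of −3.31 and Cacna1c, the L-type channel, of −1.96. Scn3a, a sodium channel best known from the embryonic brain, Cacna1g and Cacnb3 were higher, by 1.06, 1.27 and 0.93. The call of Cacna1g held whichever library was left out. That of Scn3a was lost without WT-Veh replicate 2 or WT-Topot replicate 2 or 3 and that of Cacnb3 without WT-Veh replicate 1 or 2 or WT-Topot replicate 1 or 3, with adjusted p up to 0.024 and 0.027, so that 1 of the 3 remained without WT-Topot replicate 3 or WT-Veh replicate 2.

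Of 42 genes of vesicle release, 7 were lower and 1 higher (14 and 4 with the block, median −0.23), and the 7 were all over 100 kb. Syt1, the calcium sensor for fast release, was counted at 1449, 1962 and 1759 CPM in WT-Veh and 227, 348 and 289 CPM in WT-Topot (−2.58 ± 0.19, adjusted p = 6.6e-08), a fall of the same sign in each pair and without overlap. Rims1 and Pclo, scaffolds of the active zone, had log2 fold changes of −2.65 and −1.94. The core fusion genes were not called without the block, with −0.06 for Stx1a, 0.10 for Vamp2 and −0.56 for Snap25, while Cplx2, a complexin that binds the assembled fusion complex, rose by 0.81. This call, the only higher one of the list, was lost without WT-Veh replicate 1 or WT-Topot replicate 2 or 3 (adjusted p up to 0.018), with filterByExpr and with TMM on genes of 50 kb or less. Of 31 postsynaptic scaffold and kinase genes, 14 were lower and 0 higher (23 and 1 with the block, median −0.77). Dlg2, a scaffold of the PSD-95 family, was counted at 847, 1131 and 956 CPM in WT-Veh and 264, 408 and 310.3 CPM in WT-Topot (−1.58 ± 0.19), and Dlg4, which encodes PSD-95 itself in 28.4 kb, at 789, 1023 and 752 CPM in WT-Veh and 658, 652 and 562 CPM in WT-Topot (−0.45 ± 0.17, adjusted p = 0.18). Of 15 genes of neurotrophin and neuregulin signalling, 8 were lower and 0 higher in both fits (median −1.35), with Ntrk2, the receptor for BDNF, at −1.85 and Ntrk3 at −1.35, the latter call lost without WT-Topot replicate 3 (adjusted p = 0.014).

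Among the 10 most abundant lower genes, App, the amyloid precursor protein (chromosome 16, 84954685 to 85173952, 219 kb), was counted at 1343, 1502 and 1395 CPM in WT-Veh and 588, 758 and 709 CPM in WT-Topot (−1.05 ± 0.16, adjusted p = 0.00024). Psd3, Rab3c and Adcy1, all over 100 kb, had log2 fold changes of −1.42, −1.59 and −1.08. Gpm6a and Gpm6b, related membrane proteins of neurites and glia, stood at −0.84 and −0.83, and Kif5c, a kinesin motor of axons, at −0.76. The call of Gpm6a was lost without WT-Topot replicate 1 (adjusted p = 0.016) and that of Kif5c without WT-Veh replicate 2 or WT-Topot replicate 1 or 3 (up to 0.042). Slc1a2 stood at −1.39 and is among the astrocyte markers given above. The remaining genes of the 10, Scg2 and Rgs4, span under 10 kb and belong with the short genes described next.

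A separate set of falls lay in short genes. Of 9471 measured genes of 50 kb or less, 99 were called lower and 128 higher (366 and 623 with the block), and their median log2 fold change was 0.10. The share called lower was 0.789 to 1.49% in the span classes up to 50 kb (3.27 to 4.17% with the block). Over all measured genes it was 3.55% (8.68%). The 99 had a median of −1.63 and the 360 lower genes over 100 kb one of −1.68. Both medians are over genes past the same cut, so they do not compare the falls of short and long genes. Of the 99, 52 were in any of the gene lists other than the marker lists, which held 557 of the 9471. The lists with the most members among them held 12 immediate early transcription factors, 14 activity-induced effectors, 12 genes of the amino acid response, 7 of cholesterol synthesis and 5 of neuropeptides and dense-core granules, with some genes in more than 1 list. These lists were chosen with earlier results of these data known.

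**Figure D3:**
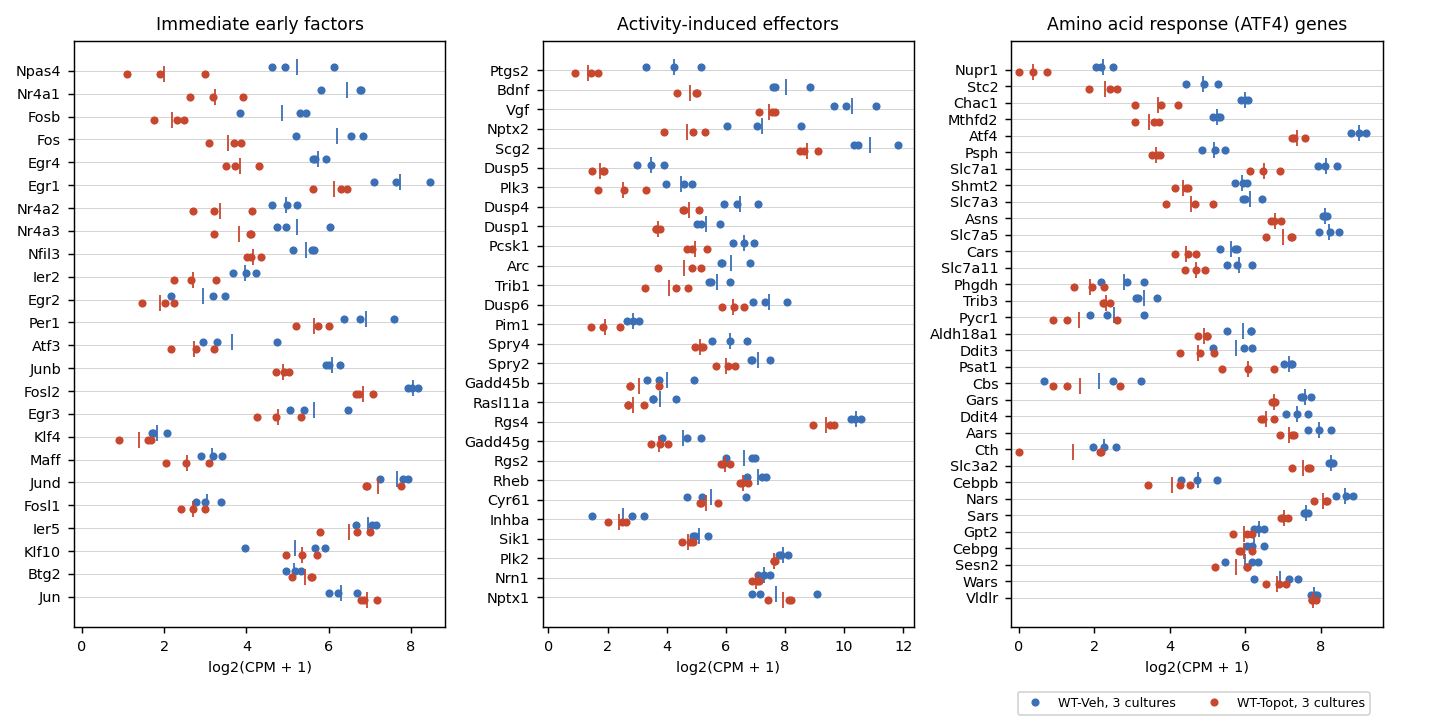
Log2(CPM + 1) in each of the 6 libraries for the members of 3 groups of short genes, ordered by log2 fold change, with 1 point per culture and a vertical tick at the mean of 3. Treated cultures lie to the left of the controls in most rows, down to the last rows, where Jun lies to the right.

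Immediate early transcription factors are switched on within minutes of synaptic activity and calcium entry. Of 24, 12 were lower and 0 higher (15 and 1 with the block), 21 had a negative value, and the median was −1.29. Npas4, the factor most specific to neuronal activity, was counted at 23.6, 69.3 and 29.8 CPM in WT-Veh and 2.72, 1.15 and 7.01 CPM in WT-Topot (−3.58 ± 0.49, adjusted p = 8.3e-05). Nr4a1, an orphan nuclear receptor, was counted at 107, 109.9 and 54.8 CPM in WT-Veh and 8.16, 5.16 and 14 CPM in WT-Topot (−3.37 ± 0.33, adjusted p = 1.9e-06), and Fos, a subunit of AP-1, at 92.2, 114 and 36.2 CPM in WT-Veh and 13.6, 12 and 7.45 CPM in WT-Topot (−2.86 ± 0.34, adjusted p = 1.9e-05). No treated culture reached the lowest control for any of the 3 genes. Fosb stood at −3.12, Egr4 at −1.93, Nr4a2 at −1.62 and Junb at −1.23, with the call of Nr4a2 lost without WT-Topot replicate 1 or 2 (adjusted p up to 0.025). Jun, the partner of FOS in AP-1, ran the other way at 102, 73.3 and 63.6 CPM in WT-Veh and 144, 115 and 110 CPM in WT-Topot (log2 fold change 0.61 ± 0.21, adjusted p = 0.13, and 0.00058 with the block), with every treated culture above every control.

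Activity-induced effectors are secreted and signalling proteins whose genes respond to the same activity, some directly and some through these factors. Of 28, 15 were called lower and 0 higher (18 and 0 with the block), and all 28 had a negative value (median −1.13). The 15 became 9 without WT-Topot replicate 2 and 9 with filterByExpr. Bdnf, the neurotrophin, was counted at 194, 462 and 202 CPM in WT-Veh and 31.6, 30.6 and 19.3 CPM in WT-Topot (−3.38 ± 0.31, adjusted p = 8.2e-07). Ptgs2, the inducible cyclooxygenase, was counted at 18, 34.9 and 8.75 CPM in WT-Veh and 1.7, 0.859 and 2.19 CPM in WT-Topot (−3.73 ± 0.52, adjusted p = 1.0e-04), and Nptx2, a secreted pentraxin that clusters AMPA receptors, at 64.6, 369.6 and 132 CPM in WT-Veh and 28.6, 14 and 38.1 CPM in WT-Topot (−2.83 ± 0.45). Vgf, a secreted neuropeptide precursor, was counted at 1067, 2179 and 809 CPM in WT-Veh and 204, 188 and 139 CPM in WT-Topot (−2.93 ± 0.28, adjusted p = 1.5e-06), and Scg2, a granin of dense-core granules, at 1305, 3627 and 1404 CPM in WT-Veh and 359, 399.9 and 555 CPM in WT-Topot (−2.27 ± 0.29, adjusted p = 4.6e-05). In WT-Veh replicate 2 these 5 genes stood above the other controls, and their calls held without that library. Arc, an organiser of AMPA receptor endocytosis, had a log2 fold change of −1.61, and Dusp1, a MAP kinase phosphatase, of −1.76. The call of Arc was lost without WT-Veh replicate 2 or WT-Topot replicate 2 (adjusted p up to 0.019). Rgs4, a regulator of G-protein signalling, was counted at 1206, 1318 and 1531 CPM in WT-Veh and 739, 493 and 798 CPM in WT-Topot (adjusted p = 0.0018).

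Because immediate early genes and their effectors are classically reached through 2 promoter elements, the 250 bases before each RefSeq gene start (GRCm38.p6) were searched for them. These are the cAMP response element (CRE), TGACGTCA, which reads the same on both strands, and the CArG box bound by SRF, also searched on both strands; no match of one overlapped a match of the other. Of the 24 transcription factors 19 and of the 28 effectors 19 had a sequence. A CRE was found in 1.77% of all 27025 genes, in 3.05% of the 10145 measured genes with a sequence, in 2 of the 19 transcription factors and in 4 of the 19 effectors. Of the 10 effectors called lower that had a sequence, 3 held a CRE and 1 held CArG boxes, against 1.39% of measured genes with a CArG box. None of the 11 transcription factors called lower held either in this window, which says only that these letters are not there. The 4 windows of called effectors are shown, as the fallen genes that carry an element, with the element in capitals. A match is a run of letters and not by itself a bound site. In each the strand is that of the gene, and the element begins 68, 78, 143 and 82 bases before the start respectively.
Scg2 (chr1:79440072-79440109, minus strand): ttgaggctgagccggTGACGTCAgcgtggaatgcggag
Pcsk1 (chr13:75089764-75089801, plus strand): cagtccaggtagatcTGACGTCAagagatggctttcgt
Dusp1 (chr17:26508593-26508630, minus strand): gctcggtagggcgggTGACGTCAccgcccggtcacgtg
Dusp5 (chr19:53529048-53529097, plus strand): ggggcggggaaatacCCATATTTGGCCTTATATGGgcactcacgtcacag
Pcsk1, a convertase that cuts prohormones, was counted at 74.8, 122 and 98 CPM in WT-Veh and 24.8, 27.8 and 40.3 CPM in WT-Topot (−1.67 ± 0.24, adjusted p = 0.00013), and Dusp5, a phosphatase of nuclear ERK whose window holds a pair of adjoining CArG boxes, at 10.2, 13.9 and 7 CPM in WT-Veh and 2.72, 2.58 and 1.75 CPM in WT-Topot (−2.11 ± 0.44, adjusted p = 0.006). The call of Dusp5 was lost without WT-Veh replicate 2 or WT-Topot replicate 2 or 3 (adjusted p up to 0.033). Plk2, an activity-induced kinase that also holds a CRE, stood at −0.29 ± 0.17 and was not called.

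Of the neuropeptide and granule genes, 7 of 22 were lower and 0 higher (15 and 0 with the block), 18 had a negative value, and the median was −1.06. Besides Scg2, the called genes were Cartpt, Cort, Nxph1, Adcyap1, Penk and Scg5. Adcyap1, the precursor of the peptide PACAP, was counted at 115, 205 and 110.3 CPM in WT-Veh and 36.7, 35.8 and 45.6 CPM in WT-Topot (−1.87 ± 0.24, adjusted p = 4.2e-05). Cort, the cortistatin of interneurons, was counted at 6.4, 30.4 and 7.59 CPM in WT-Veh and 1.36, 1.15 and 1.75 CPM in WT-Topot, a call lost without WT-Veh replicate 2 (adjusted p = 0.022), and Cartpt at 6.4, 3.13 and 2.92 CPM in WT-Veh and 0.34, 0.286 and 0.438 CPM in WT-Topot (at least 3.9-fold lower), lost without WT-Veh replicate 1 or WT-Topot replicate 1 or 2 or 3 (adjusted p up to 0.088). The call of Scg5 was lost without WT-Veh replicate 3 or WT-Topot replicate 1 or 2 (up to 0.026). Sst and Npy, peptides of interneurons, were counted at 77.1, 183 and 415 CPM in WT-Veh and 46.9, 63.9 and 216 CPM in WT-Topot and at 9.6, 32.6 and 37.9 CPM in WT-Veh and 5.78, 7.45 and 17.1 CPM in WT-Topot, and both were lower only with the block (adjusted p = 3.6e-10 and 1.5e-05, against 0.35 and 0.094 without it). Several of these peptides are made by interneurons, whose markers are given above. Crhbp, a binding protein of corticotropin-releasing hormone, fell from 12.5, 45.6 and 71.2 CPM to 2.04, 1.15 and 2.63 CPM (−4.47 ± 0.55, adjusted p = 2.5e-05).

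The amino acid response, in which the factor ATF4 raises amino acid synthesis, uptake and tRNA charging, showed falls in each of these classes. Of 33 genes, 14 were called lower and 0 higher (22 and 0 with the block), and all 33 had a negative value (median −1.09). Atf4 itself was counted at 449, 521 and 585 CPM in WT-Veh and 155, 189.6 and 149.9 CPM in WT-Topot (−1.65 ± 0.18, adjusted p = 5.8e-06), and Asns, asparagine synthetase, at 268, 286 and 277 CPM in WT-Veh and 122, 107 and 103 CPM in WT-Topot (−1.32 ± 0.18, adjusted p = 5.6e-05). Both genes were tightly grouped, with controls well above treated cultures. Chac1, which degrades glutathione, was counted at 58.8, 63 and 65.9 CPM in WT-Veh and 7.48, 17.5 and 12.7 CPM in WT-Topot (−2.30 ± 0.27), and Stc2, a secreted glycoprotein, at 37.8, 20.6 and 29.2 CPM in WT-Veh and 5.1, 4.3 and 2.63 CPM in WT-Topot (−2.83 ± 0.35). The serine and one-carbon genes Psph, Shmt2 and Mthfd2 had log2 fold changes of −1.63, −1.59 and −1.87, the amino acid transporters Slc7a1, Slc7a5 and Slc7a11 of −1.62, −1.21 and −1.20, and the tRNA synthetases Cars and Gars of −1.20 and −0.84. The call of Slc7a11 was lost without WT-Veh replicate 1 or WT-Topot replicate 2 or 3, that of Cars without WT-Veh replicate 2 or WT-Topot replicate 2 or 3 and that of Gars without WT-Veh replicate 2 or WT-Topot replicate 1 or 2 or 3, with adjusted p up to 0.025, 0.027 and 0.027. Of 28 heat shock and endoplasmic reticulum chaperone genes, 1 was lower in either fit, Herpud1 (−1.21), and 0 were higher, with a median of −0.08.

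Cholesterol synthesis genes are controlled together by SREBP2. Of 23, 7 were called lower and 0 higher (13 and 1 with the block), 21 had a negative value, and the median was −0.99. Cyp51, Insig1 and Mvd, a demethylase of the pathway, its sterol sensor and an early enzyme, had log2 fold changes of −1.21, −1.10 and −1.65. Leaving out WT-Topot replicate 2 gave 4 lower genes in place of 7, and leaving out WT-Topot replicate 3 gave 3. Insig1 lost its call without WT-Topot replicate 3 and Mvd without WT-Topot replicate 2 or 3 (adjusted p up to 0.024 and 0.032). Ebp alone was higher with the block (1.06). In the same cultures 3 of 10 astrocyte markers were called lower, and their part in these values was not tested.

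Of 22 genes of the perineuronal and brain matrix, 6 were lower and 0 higher (9 and 3 with the block, median −0.53). Reln, the glycoprotein reelin (460.3 kb), was counted at 82.3, 229.7 and 95.7 CPM in WT-Veh and 16.3, 26.4 and 21 CPM in WT-Topot (−2.67 ± 0.33, adjusted p = 2.3e-05), with every treated culture below every control. Acan, the aggrecan of perineuronal nets, was counted at 30.5, 114 and 15.2 CPM in WT-Veh and 15.6, 10.3 and 8.76 CPM in WT-Topot (−2.19 ± 0.49, adjusted p = 0.0094). Its groups overlapped, as in no other gene called lower, and its call was lost without WT-Veh replicate 2 or WT-Topot replicate 2 or 3 (adjusted p up to 0.14).

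Of the 159 higher genes with a span, 80.5% spanned 50 kb or less (82.1% with the block), beside 70.7% of all measured genes with a span, and no list held more than 3 of the rises. Of the 20 largest, 16 were in genes of 50 kb or less, and 1, Mdga1, was in a gene over 100 kb. Samd9l, an interferon-inducible gene, was counted at 2.62, 1.34 and 2.92 CPM in WT-Veh and 15, 15.2 and 27.6 CPM in WT-Topot (3.03 ± 0.43, adjusted p = 0.00011). Rab26, a small GTPase of secretory granules and vesicles, was counted at 5.82, 6.7 and 7 CPM in WT-Veh and 35.4, 25.8 and 49.1 CPM in WT-Topot (2.50 ± 0.32, adjusted p = 3.8e-05), and Syt17, an atypical synaptotagmin, at 8.15, 11.6 and 13.4 CPM in WT-Veh and 42.9, 49 and 57.8 CPM in WT-Topot (2.20 ± 0.27, adjusted p = 2.5e-05). Kctd4, which lies inside Gtf2f2 on the other strand in the annotation, was counted at 3.49, 10.7 and 12.3 CPM in WT-Veh and 41.2, 49.6 and 51.3 CPM in WT-Topot (2.50 ± 0.34), while Gtf2f2 stood at −0.10 ± 0.33. In these 4 genes every treated culture lay above every control. Of the 20, the calls of Abca8a, Ldhd, Rxfp3, Gstm6, Krt1 and Ctxn2 were lost without at least 1 library, with adjusted p-values up to 0.012, 0.029, 0.046, 0.15, 0.016 and 0.053. That of Ldhd was lost without WT-Veh replicate 1 or 2 or WT-Topot replicate 1 or 2. Gstm6 and Gstm7 (3.02) have near-identical neighbours, and the counting could have split reads among them.

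Among the 10 most abundant higher genes, Pnmal2, of the PNMA family, was counted at 351, 425 and 323 CPM in WT-Veh and 1087, 1156 and 993 CPM in WT-Topot (1.56 ± 0.17, adjusted p = 4.8e-06), and Wdr6, a WD-repeat protein, at 348, 338 and 307 CPM in WT-Veh and 1044, 1099 and 756 CPM in WT-Topot (1.54 ± 0.18, adjusted p = 9.9e-06). Both stood past 2-fold in each pair. Enc1, a kelch protein of neurons, rose by 1.00 and Sez6, a membrane protein of dendrites, by 1.06, with calls that held without any 1 library, as did those of 6330403A02Rik (1.30) and D430019H16Rik (1.16). Those of Chd3, Atp2b4 and Nnat, a chromatin helicase, a calcium pump and an imprinted proteolipid, did not (log2 fold changes 0.84, 0.85 and 0.98, adjusted p up to 0.025, 0.054 and 0.012). Mdga1, a membrane-anchored protein that binds neuroligins and blocks their pairing with neurexins, was the largest rise over 100 kb among genes averaging 5 CPM or more (142 kb, chromosome 17, 29964901 to 30107032) and was counted at 22.1, 76.9 and 20.4 CPM in WT-Veh and 216, 238 and 175 CPM in WT-Topot (2.40 ± 0.35, adjusted p = 0.00015). Its relative Mdga2, of 751 kb, was counted at 77.7, 106 and 81.7 CPM in WT-Veh and 16.7, 18.3 and 15.3 CPM in WT-Topot and fell (−2.39 ± 0.23, adjusted p = 1.3e-06). Shroom2, which binds actin, rose by 1.20 and kept its call. Filip1, Mtus1, Nhsl1, Scn3a, Nhsl2, Serinc5 and Fam126a, with log2 fold changes of 1.00 to 1.71, did not. Mtus1 lost its call whichever library was left out (adjusted p up to 0.038), and Nhsl2 only without WT-Topot replicate 2. The others lost theirs without WT-Veh replicate 2 and also without at least 1 WT-Topot replicate.

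Genes of DNA damage and of the transcription machinery gave few calls. Of 34 genes of topoisomerases and DNA break repair, edgeR called 0 (2 lower and 2 higher at an unadjusted p of 0.05), and 2 were higher with the block, among them Top1mt (1.98), with a median of −0.02. Top2b, the topoisomerase II of neurons, was counted at 112, 128 and 76.4 CPM in WT-Veh and 103, 172 and 117 CPM in WT-Topot (0.31 ± 0.23), with overlapping groups, and Tdp1, which removes TOP1 from DNA ends, at 8.44, 16.5 and 9.34 CPM in WT-Veh and 6.8, 8.31 and 12.3 CPM in WT-Topot (−0.33 ± 0.38). Of 29 p53 target genes, 1 was lower, Plk3 (−2.03), which is also an activity-induced gene, and 1 higher, Trp53inp1 (72.4, 63.5 and 73.5 CPM in WT-Veh and 132, 149 and 131 CPM in WT-Topot, 0.98 ± 0.18, adjusted p = 0.0023). The call of Plk3 was lost without WT-Topot replicate 2 and that of Trp53inp1 without WT-Veh replicate 2 or WT-Topot replicate 2 (adjusted p up to 0.0103 and 0.014). The median of the list was 0.28, with 8 of 29 negative. In the blocked fit the counts were 2 and 5, the 5 including Ccng1, Sesn1, Phlda3 and Perp at 0.58, 0.58, 0.65 and 0.95. Cdkn1a, the p53 target that arrests the cell cycle, was counted at 249.9, 307 and 132 CPM in WT-Veh and 309.6, 219 and 183 CPM in WT-Topot (0.04 ± 0.25, adjusted p = 1). Of 43 RNA polymerase II and elongation genes, Hexim1, which holds the elongation kinase P-TEFb inactive, was the only one called: 51.8, 51.8 and 59.5 CPM in WT-Veh and 139, 107 and 142 CPM in WT-Topot (1.26 ± 0.20, adjusted p = 0.00034). With the block Polr2a, the largest subunit, was higher (0.89) and Ell2 lower (−0.76).

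**Figure D4:**
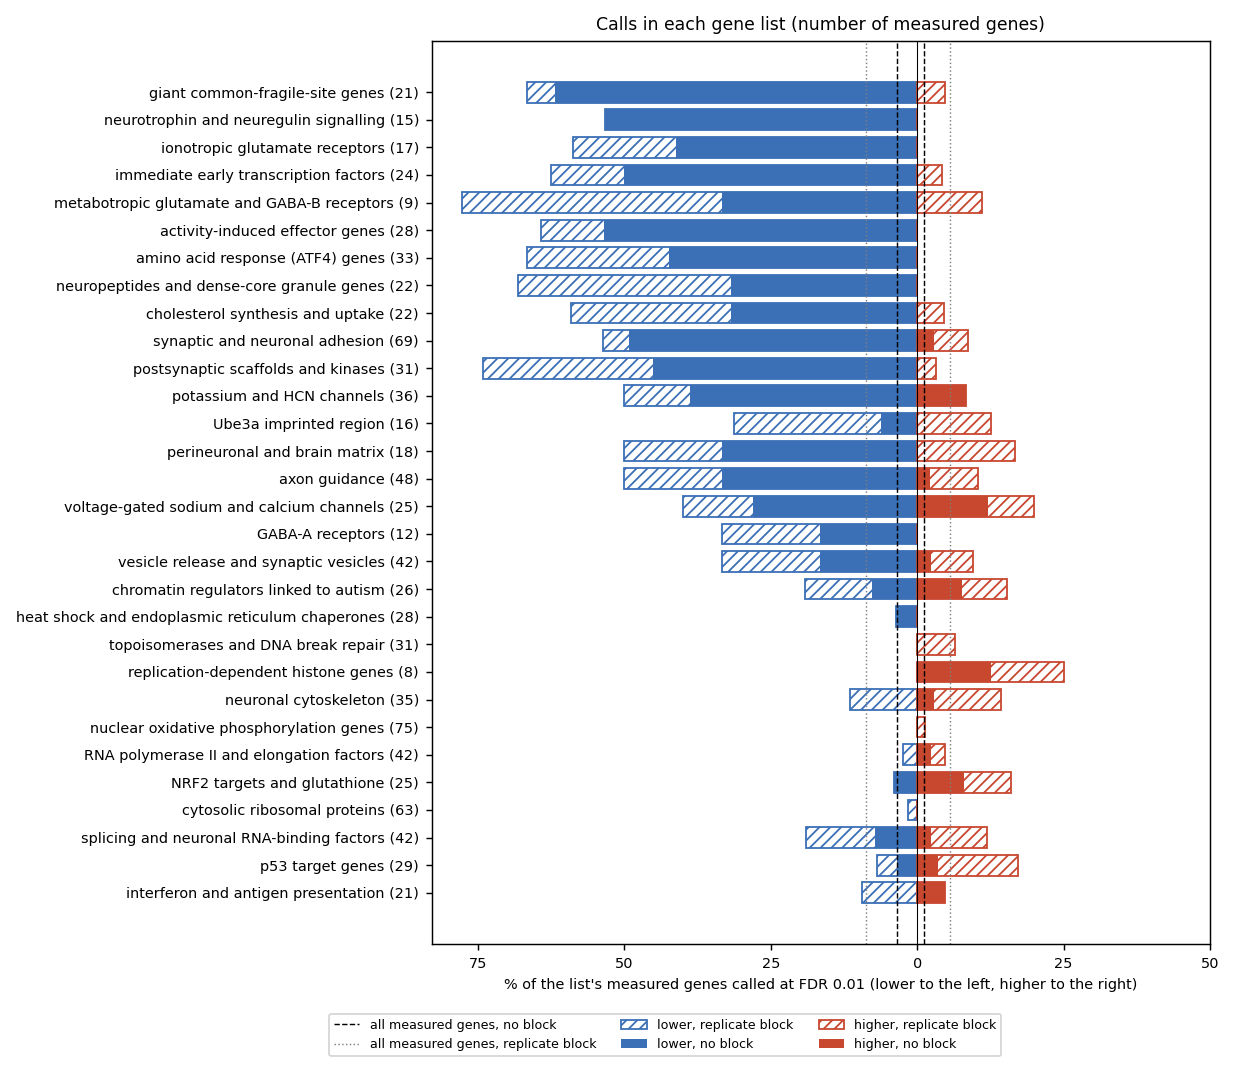
Share of the measured genes of each list, whose number is in brackets, that was called lower (to the left) or higher (to the right) at an FDR of 0.01, in filled bars without and hatched bars with the replicate block. Dashed and dotted lines mark the shares over all measured genes, 3.55% lower and 1.18% higher without the block and 8.68% and 5.63% with it. Lists are in order of their median log2 fold change, and those of adhesion, glutamate receptors, activity-induced genes and the amino acid response reach past the lines for all measured genes.

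Of 42 splicing and neuronal RNA-binding genes, 3 were lower, Celf2, Rbfox1 and Rbfox3, all over 100 kb, and 1 was higher, Tra2a, at 1.30 (8 and 5 in the blocked fit). The call of Tra2a was lost without WT-Veh replicate 1 or 2 or WT-Topot replicate 3 (adjusted p up to 0.018) and that of Rbfox1 without WT-Topot replicate 3 (adjusted p = 0.02). Of 26 chromatin regulators linked to autism, Mbd5 and Arid1b were lower (−1.44 and −1.38) and Chd3 and Tbr1 higher (0.84 and 1.12). The blocked fit called 5 of these regulators lower and 4 higher. In the imprinted region of Ube3a, the gene whose paternal copy is silenced by an antisense transcript in neurons, 1 of 17 genes was lower and 0 higher (5 and 2 with the block). Ube3a was counted at 187, 215 and 184 CPM in WT-Veh and 206, 366 and 323 CPM in WT-Topot (log2 fold change 0.61 ± 0.20, adjusted p = 0.11, and 0.00028 with the block). Snrpn was counted at 75.4, 83.6 and 92.2 CPM in WT-Veh and 45.9, 55.3 and 61.8 CPM in WT-Topot (−0.62 ± 0.20), and was called lower only with the block. Of 35 cytoskeletal genes, 1 was higher, the neurofilament gene Ina (0.84), and 0 were lower (5 and 4 with the block). The call of Ina was lost without WT-Veh replicate 2 or WT-Topot replicate 1 or 3 (adjusted p up to 0.02). Of 28 interferon and antigen presentation genes, 1 was higher, Irf9 (2.06), and 0 were lower (1 and 2 with the block), and of 27 NRF2 and glutathione genes, 2 were higher, Gsta4 (1.90) and Pgd (1.36), and 1 lower (4 and 1 with the block). Lists of ribosomal and oxidative phosphorylation genes gave almost no calls. Of 85 ribosomal protein genes, 63 of them measured, 0 were called (1 lower with the block). Of 78 nuclear oxidative phosphorylation genes, 75 of them measured, 0 were called (1 higher with the block). Of 68 histone genes 8 were measured, and 1 of these, Hist3h2a, was higher (2 with the block). Its call was lost without WT-Topot replicate 3 (adjusted p = 0.019). Over all measured genes, 1.18% were higher (5.63% with the block). At an unadjusted p of 0.05, 1 ribosomal protein gene was lower and 1 oxidative phosphorylation gene higher. Of the histone genes, 33 had no count.

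Genes that lie wholly within a long gene that was called lower were set beside their hosts. Of 16 such genes, 13 lay on the opposite strand and 3 on the same strand, and their median log2 fold changes were −0.51 and −1.50, beside −1.66 and −1.75 for the hosts. With the hosts lower in the blocked fit included, 23 genes on the opposite strand had a median of −0.51 (hosts −1.21) and 12 on the same strand of −0.33 (hosts −1.04), so the values of the 2 strands did not keep their order. Within hosts not lower in the blocked fit, 71 genes on the opposite strand had a median of −0.01 and 23 on the same strand of −0.07. Several of these lay within the annotated span of Fgfr2. Trim32, Cstf2t and Lrrtm1, given next, ran against the medians of genes within lowered hosts. They were chosen as nested examples after their values were seen, and of them the naming rule selects only Lrrtm1, from the adhesion list. Trim32, a ubiquitin ligase inside Astn2, was counted at 361, 368 and 285 CPM in WT-Veh and 399, 404 and 327 CPM in WT-Topot (0.16 ± 0.17) while Astn2 stood at −3.90 ± 0.51. Cstf2t, a polyadenylation factor gene inside Prkg1, was counted at 171, 209 and 188 CPM in WT-Veh and 244, 246 and 225 CPM in WT-Topot (0.33 ± 0.17). The groups overlapped for Trim32, and for Cstf2t every treated culture lay slightly above every control, without a call in either fit. Lrrtm1, a synaptic adhesion protein inside Ctnna2, was counted at 206, 148 and 216 CPM in WT-Veh and 334, 301 and 291 CPM in WT-Topot. Every treated culture stood above every control (0.70 ± 0.18, adjusted p = 0.031, and 2.0e-06 with the block). Among the nested genes called lower was the uncharacterised 4930545L23Rik in Plcb1, with 5.44 CPM as WT-Veh mean and no count in WT-Topot. It too was named after its values were seen. Whether counting used strand is not stated, so reads of a host and a gene on its other strand may have been shared.

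The same dose and time of topotecan were then followed in Top1-deleted cultures, whose 6 libraries are separate from the 6 used so far. There, 7 genes were called lower without the block (0.0293% of 23893 genes), and 223 lower and 54 higher with it (0.933% and 0.226%). The 488 genes lower in Top1-intact cells had a median log2 fold change of −0.34 in Top1-deleted cells, and 397 of them had the same sign. The 163 higher genes had a median of 0.01, and 84 had the same sign. Over all measured genes the median was −0.01. Both sets were chosen by their change in Top1-intact cells. Changes in Top1-deleted cells start from Top1 cKO-Veh, whose levels of these genes are not given here. The study reports that deletion alone lowered long genes. By span, lower genes over 100 kb had a median of −0.42 (323 of 360 with the same sign), and lower genes of 50 kb or less a median of −0.04 (52 of 99). Over all measured genes of 400 to 800 kb the median was −0.46, and over 800 kb −0.92. Cadm2 had a log2 fold change of −2.20 ± 0.25 in Top1-deleted cells beside −4.25 ± 0.26 in Top1-intact cells, and Nrg3 of −1.82 ± 0.27 beside −4.51 ± 0.31. CRE was expressed from the neuron-specific promoter, and the study ascribes the TOP1 left after CRE most likely to uninfected neurons or non-neuronal cells. Astrocytes in the Top1 cKO cultures may thus have kept Top1. Astrocyte markers had a median of −0.78 in the Top1 cKO cultures beside −0.96 in the Top1-intact cultures, with Gfap at −1.48 ± 0.49 in the former. The test of the difference described next called 0 of the 10 without the block. With the block, 2 had an effect in the Top1 cKO cultures above that in the Top1-intact cultures and 0 had one below it.

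**Figure D5:**
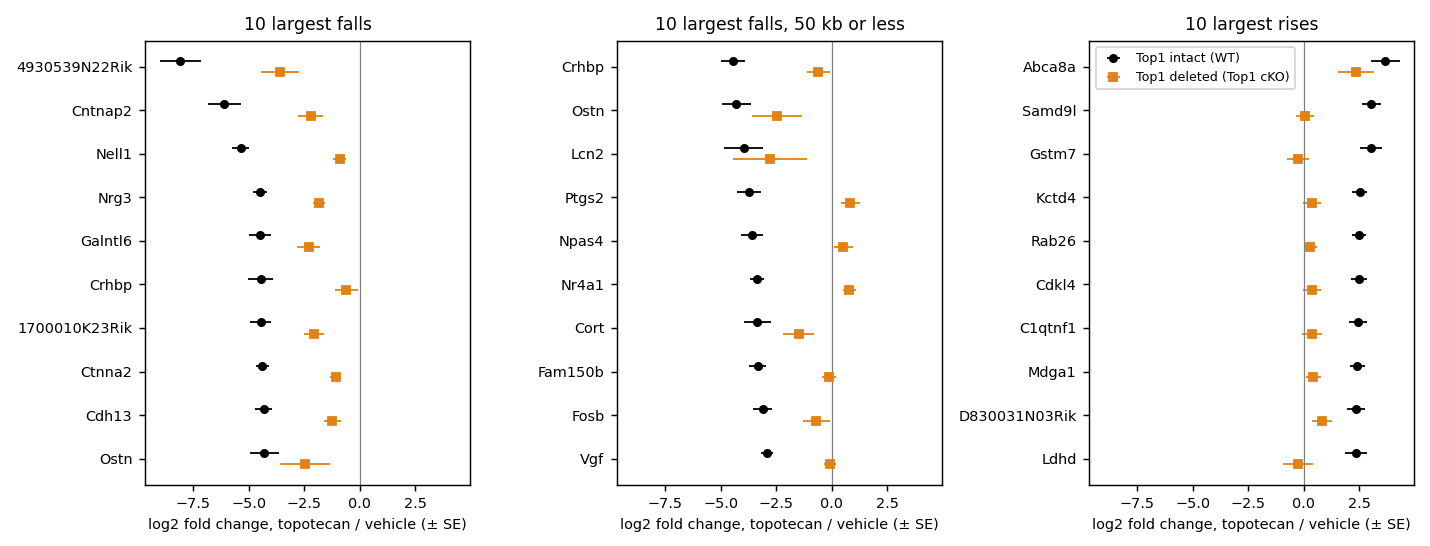
Log2 fold change with topotecan (± SE) in Top1-intact and Top1-deleted cells for the 10 largest falls, the 10 largest falls in genes of 50 kb or less and the 10 largest rises, each chosen on Top1-intact cells. In Top1-deleted cells the 10 largest falls stay below 0 at a smaller size, while Ptgs2, Npas4 and Nr4a1 lie above 0. The fitted values of 4930539N22Rik, Cntnap2 and Ostn, at or under 3 counts in every WT-Topot library, depend on the fit and are not bounds.

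The difference between the 2 effects was tested as the interaction of drug and genotype on all 12 libraries. The effect in Top1-deleted cells was above that in Top1-intact cells for 95 genes (0.398%) and below it for 9 (0.0377%), and with the block for 583 (2.44%) and 365 (1.53%). This test uses the 6 Top1-intact libraries again. The 95 genes had a median log2 fold change of −2.01 in Top1-intact and −0.12 in Top1-deleted cells. They comprised 67 genes over 100 kb and 22 of 50 kb or less. Among short genes, Bdnf stood at −3.38 ± 0.31 in Top1-intact and 0.34 ± 0.29 in Top1-deleted cells (difference 3.72 ± 0.43, adjusted p = 0.00013), and Nr4a1 at −3.37 ± 0.33 and 0.79 ± 0.28 (difference 4.17 ± 0.45, adjusted p = 9.8e-05). Of the 24 immediate early factors 6 and of the 28 effectors 8 had such a difference (15 and 17 with the block), and the medians of these lists in Top1-deleted cells were 0.45 and 0.29. Atf4 stood at 0.25 ± 0.17 in Top1-deleted cells and the amino acid response at a median of −0.04, with 2 genes, Atf4 and Chac1, past the test of the difference (14 genes with the block). Among long genes, Nell1 stood at −0.91 ± 0.30 (difference 4.46 ± 0.51, adjusted p = 0.00013) and Ctnna2 at −1.08 ± 0.25 (difference 3.31 ± 0.38, adjusted p = 0.00013). The 9 genes with a lower effect in Top1-deleted cells were Sec14l3, Ccdc74a, Syt17, Cdhr1, Cdo1, Wdr6, Car11, Klhl5 and Kctd12, some of them named after their values were seen, with a median of 1.54 in Top1-intact and −0.36 in Top1-deleted cells. Wdr6 stood at 1.54 ± 0.18 and −0.32 ± 0.19 (difference −1.86 ± 0.27, adjusted p = 0.0011), and Syt17 at 2.20 ± 0.27 and −0.36 ± 0.25 (difference −2.55 ± 0.37, adjusted p = 0.0011).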

How the data were processed

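PolyA RNA libraries were made with the TruSeq kit from RNA of RIN above 7 and sequenced as paired-end reads, which the authors filtered with TagDust, aligned to mm9 with TopHat (both named in the study's methods or the submitters' processing notes) and cleared of reads on rRNA genes. They deposited raw counts over RefSeq exons per gene symbol, without normalization. The counting program, its use of strand and the versions are not given in the sources used here, so overlapping genes or near-identical copies may share reads. Of 23893 genes, 5934 had no count in the 6 libraries. Every column was mapped to a sample by its label.

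From the deposited counts, library sizes were scaled by TMM, and WT-Topot was compared with WT-Veh on their 6 libraries with the quasi-likelihood test of edgeR 4.0.16 in R 4.3.3, with no filter, Benjamini-Hochberg adjustment over all genes and an FDR of 0.01. A standard error is the log2 fold change divided by the square root of F. The interaction was fitted on 12 libraries. Whether replicate numbers pair the cultures was checked on deviations from the group means over 13760 genes. The correlation was 0.343 to 0.409 in the 3 like-numbered pairs and −0.263 to −0.136 in the 6 pairs of different number between groups. Deviations cancel over the 3 cultures of a group, so the negative values follow from the positive ones and are not separate evidence. The pairing thus comes from the labels' numbers and the like-numbered correlations. A fit with the number as a block stands beside each result that it changes. The dispersion index within groups was 6.35 to 8.97, where sampling noise gives 1, so no library was a repeat. Tests were checked on simulated counts first.

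Spans come from GENCODE vM1 on NCBIM37, where 21013 symbols matched directly, 1067 through RefSeq synonyms and 1813 did not. Promoter sequences are RefSeq's on GRCm38.p6, and no coordinates were converted. Gene lists and the rule for named genes were chosen with earlier results of these data known. Named are the 20 largest falls and rises among called genes averaging 5 CPM or more that moved one way in 3 pairs, the 10 most abundant called in each direction, the 10 largest falls of 50 kb or less and rises over 100 kb. From each gene list the rule names the members called in either fit with the largest changes in each direction. It also names the cell type markers. Other list members were chosen after their values were seen. Alternatives were the block, DESeq2 1.42.0, edgeR's exact test, RLE factors, library totals, TMM on genes of 50 kb or less, filterByExpr, a fit on 12 libraries, an FDR of 0.05 and leaving out each library. Some genes that the naming rule selects are not reported here by name.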

Additional observations from a re-analysis of the deposited data

Results flagged for a closer look

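The effect of topotecan differed between Top1-deleted and Top1-intact cells, by edgeR's interaction term on 12 libraries at an adjusted p under 0.01, for 95 genes with a higher and 9 genes with a lower effect in Top1-deleted cells. Given as the log2 effect in Top1-deleted minus that in Top1-intact cells, the named short genes with a difference were Ptgs2 (4.58), Nr4a1 (4.17), Npas4 (4.11), Bdnf (3.72), Nptx2 (3.37), Fam150b (3.19), Fos (2.91), Vgf (2.83), Scg2 (2.65) and Chac1 (2.52). The named long genes were Nell1 (4.46), Ctnna2 (3.31), Kcnma1 (3.24), Cdh13 (3.09), Nrg3 (2.69), Grid1 (2.64), Kcnq5 (2.11), Cadm2 (2.05), Rims1 (1.96), Prkcb (1.90), Cadps (1.75) and Rab3c (1.55), and polyA reads at Mir8115 differed by 3.87. In the opposite direction were Sec14l3 (−3.75), Ccdc74a (−2.83), Syt17 (−2.55) and Wdr6 (−1.86). No cause of these differences was tested.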

How the results depend on the processing

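With the replicate block, which pairs cultures by number, 1195 genes were lower and 775 higher, and the interaction gave 583 genes with a higher and 365 with a lower effect in Top1-deleted cells. An FDR of 0.05 gave 751 lower and 334 higher genes. The filter of filterByExpr gave 98 higher genes and 58 genes with a higher effect in Top1-deleted cells. Leaving out 1 library at a time gave 423 to 736 lower genes and 110 to 291 higher genes, with the most of each without WT-Veh replicate 3. It gave 48 to 123 genes with a higher and 2 to 24 with a lower effect in Top1-deleted cells. Other normalizations and tests gave 428 (library totals) to 621 (DESeq2) lower genes and 112 (TMM on genes of 50 kb or less) to 233 (exact test) higher genes. Lower genes were 75% of all calls, 60.7% with the block and 67.0 to 82.9% under other scalings, which moved the median of measured genes by −0.084 to 0.080. The length difference stayed below 0, between −0.495 and −1.79. No call of the 651 genes changed sign in any setting. Of the values of named genes, 3551 kept their side of the threshold, 161 passed it and 154 lost it, and of the counts within lists 171 moved by over 1.5 times and 969 did not. At 1730164 to 3493909 counts, genes under about 1 CPM cannot show a fall.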
